A study of Patiria miniata with 6 samples.

Results

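The loci described here are those that the authors' deposited table names after the T-box family in the bat star Patiria miniata. They were found by name: a locus was taken if 1 of its gene names was Pm-Bra, Pm-T or Pm-Brachyury, or began with Pm-Tbr, Pm-Tbrain, Pm-Tbx or Pm-Eomes. The match gave 8 loci of the 27630 in that table, the only source of gene names used here. Reads were counted at 80165 loci, and those outside the table had no name to search. Of the 8 matched loci, 6 carry names of T-box factors: 2 loci named Pm-Bra, 2 named Pm-Tbx2-3, 1 named Pm-Tbx4, and 1 whose names are Pm-Ncoa5L and Pm-Tbx15. The other 2 are named Pm-Tbrg1L and matched only through their first letters. The human gene whose symbol resembles that name, TBRG1, encodes a growth-regulating nuclear protein that is not a T-box factor, so these loci are kept under the rule but described apart. No locus in the table carried the name Pm-Tbr, Pm-Tbrain or Pm-Eomes (0 loci), so the transcript of the targeted gene was not analysed here and the labels were not checked against it. A T-box locus outside the table, that of Pm-Tbr included, would have been missed by this search.

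T-box proteins are transcription factors that bind DNA through a shared domain, the T-box, first recognised in Brachyury. Many act early in development to set up germ layers and organ fields. Brachyury is expressed around the blastopore in echinoderm embryos and is known for its part in gastrulation. Tbr (T-brain, the Eomes group) acts in the vegetal endomesoderm of sea stars and in the skeletogenic mesoderm of sea urchins, while Tbx2/3 is known as a gene of the aboral ectoderm in sea urchin embryos.

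Libraries came from RNA of pooled hatched blastulae. Zygotes had received 600 µM of either an antisense morpholino (MASO) directed at Pm-Tbr or a standard control MASO, together with a rhodamine tracer. Embryos with arrested or abnormal development were removed before RNA extraction, so each pool holds the embryos that passed this sort. The Pm-Tbr MASO group held 3 libraries at 36 hours post fertilization (hpf), and the control MASO group 3 libraries at 30 hpf. Age therefore differs with the morpholino in every comparison, and the effects of age and knockdown cannot be told apart. Nothing in the labels ties a replicate to its own spawning, and the p-values below cover only the spread among these libraries, which may be technical.

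Reads assigned to loci numbered 17795136 to 28167566 per Pm-Tbr MASO library and 25423004 to 26958581 per control MASO library. Levels are CPM, read counts scaled to the size of the library, after TMM scaling. A CPM is not divided by transcript length, and the sources used here give no such length, so levels are compared between groups at a locus and not between loci. Scaffold positions are those of the deposited table; no label or header names the genome build. In pools of whole embryos, fewer cells expressing a gene and less RNA per cell cannot be told apart.

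**Figure D1:**
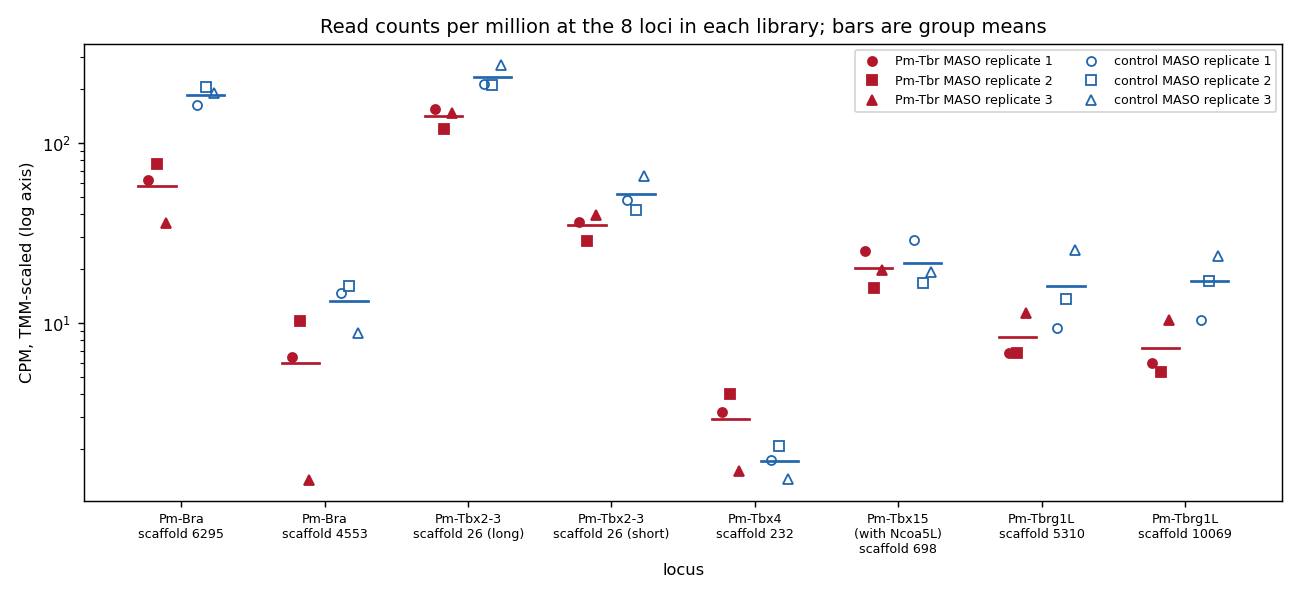
CPM on a log axis at each of the 8 loci, with 1 point per library (filled for Pm-Tbr MASO, open for control MASO; circles, squares and triangles for replicates 1, 2 and 3) and a bar at each group mean. The groups are separate at the Pm-Bra locus on scaffold 6295 and at both Pm-Tbx2-3 loci and overlap at the other 5.

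Brachyury was the T-box gene that passed the test. The Pm-Bra locus with more reads (XLOC_062556, gene model PMI_016410) lies on the plus strand of scaffold 6295 from 8782 to 21108. It had 61.9, 75.7 and 35.9 CPM in Pm-Tbr MASO replicates 1 to 3, against 161, 203 and 188 CPM in control MASO replicates 1 to 3. All Pm-Tbr MASO libraries were below all control MASO libraries, and replicate 3 was the lowest. The means were 57.8 ± 20.2 CPM in Pm-Tbr MASO embryos and 184 ± 21.3 CPM in control MASO embryos (SD, n = 3 each), so controls held 3.19 times as much. Pm-Bra fell at this locus with a log2 fold change of -1.67 ± 0.30 (SE; 95% interval -2.35 to -0.99; adjusted p = 0.0354, quasi-likelihood test of edgeR, Benjamini-Hochberg over 44120 loci). It was the 1 called locus of the 8, where 2.28% of all tested loci were called and 0.922% were called lower. With only the 27630 loci with CPM above 2 in 3 libraries tested, 1449 were called, 624 of them lower. This Pm-Bra locus was again the 1 called of the 8 (adjusted p = 0.0264 in edgeR). With the replicate number as a block, which pairs same-numbered libraries although no label states a pairing, the log2 fold change of this Pm-Bra locus was -1.73. Its adjusted p was 0.0108 in edgeR. The call was lost when any 1 library was left out, with log2 fold changes of -1.92 to -1.42 and adjusted p from 0.0529 to 0.138; called loci then numbered 0 to 479 in all, against 1008 with every library.

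The Pm-Bra locus with fewer reads (XLOC_051181, gene model PMI_026029) lies on the plus strand of scaffold 4553 from 40024 to 41935, a span of 1912 bases against 12327 bases for the other locus. It had 6.42, 10.2 and 1.34 CPM in Pm-Tbr MASO replicates 1 to 3, against 14.7, 16.0 and 8.82 CPM in control MASO replicates 1 to 3. The groups overlapped because Pm-Tbr MASO replicate 2 lay above control MASO replicate 3. The log2 fold change of -1.13 ± 0.61 (SE; 95% interval -2.54 to 0.28) did not pass in edgeR's quasi-likelihood test (adjusted p = 0.350), nor with the replicate block (-1.43, adjusted p = 0.0597). Without Pm-Tbr MASO replicate 3 it was -0.66 and without Pm-Tbr MASO replicate 2 it was -1.76, so single libraries moved this value by more than 1.5 times. Only 24 reads stood behind Pm-Tbr MASO replicate 3 at this locus, against 642 at the locus on scaffold 6295.

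Both Pm-Bra loci had their lowest level of all 6 libraries in Pm-Tbr MASO replicate 3. The locus on scaffold 6295 held 90.6%, 88.2% and 96.4% of the reads of the name in Pm-Tbr MASO replicates 1 to 3, and 91.6%, 92.7% and 95.5% in control MASO replicates 1 to 3. The mean shares, 91.7% in Pm-Tbr MASO and 93.3% in control MASO libraries, differed by -1.57 percentage points, less than the SD among Pm-Tbr MASO libraries (4.23 points). An exact two-sided permutation test over the 6 libraries gave p = 0.60 for this share, and p = 0.60 after adjustment over the 3 names with several loci; the smallest p that 3 libraries against 3 allow is 0.1. Summed over both loci, Pm-Bra had 63.8 ± 24.6 CPM in Pm-Tbr MASO embryos and 197 ± 21.6 CPM in control MASO embryos (SD, n = 3 each). The sum fell with a log2 fold change of -1.63 ± 0.31 (SE; adjusted p = 0.0424 in edgeR). Whether the loci are separate genes, copies or pieces of 1 gene was not tested, and reads that aligned to several places were not counted at either.

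**Figure D2:**
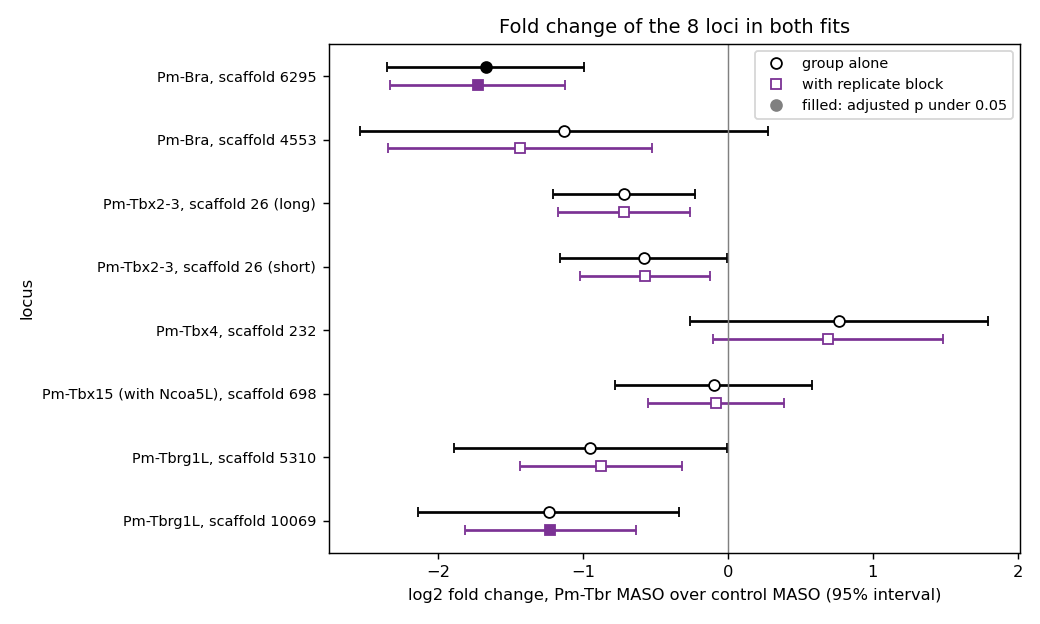
Log2 fold change of Pm-Tbr MASO over control MASO at each of the 8 loci with its 95% interval, from the fit with group alone (black circles) and with the replicate number as a block (purple squares). Filled symbols have an adjusted p under 0.05: Pm-Bra on scaffold 6295 in both fits and Pm-Tbrg1L on scaffold 10069 with the block.

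Pm-Tbx2-3 was lower in all Pm-Tbr MASO libraries than in all control MASO libraries at both of its loci, yet neither passed the test. Its loci share 1 gene model (PMI_008589) on scaffold 26 and lie 220 bases apart. The longer one (XLOC_036104, plus strand) spans 130099 to 165482. It had 155, 119 and 147 CPM in Pm-Tbr MASO replicates 1 to 3, against 212, 208 and 271 CPM in control MASO replicates 1 to 3. The means were 140 ± 18.8 CPM in Pm-Tbr MASO embryos and 231 ± 35.3 CPM in control MASO embryos (SD, n = 3 each), and the log2 fold change was -0.72 ± 0.21 (SE; 95% interval -1.21 to -0.23; adjusted p = 0.116 in edgeR, 0.0602 with the replicate block). The shorter one (XLOC_036108, no strand assigned) spans 165702 to 167307. It had 36.3, 28.5 and 39.6 CPM in Pm-Tbr MASO replicates 1 to 3, against 48.1, 42.6 and 65.6 CPM in control MASO replicates 1 to 3. Its log2 fold change was -0.58 ± 0.25 (SE; adjusted p = 0.245 in edgeR, 0.102 with the block), and -0.38 without control MASO replicate 3. Lack of overlap was common in these data: it held for 3 of the 8 loci, where 26.5% of all tested loci did not overlap and 13.3% were separate in the lower direction.

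Most reads of Pm-Tbx2-3 fell on the longer locus in every library. The longer locus held 81.0%, 80.7% and 78.7% of the reads of the name in Pm-Tbr MASO replicates 1 to 3, and 81.5%, 83.0% and 80.5% in control MASO replicates 1 to 3. The difference of the means was -1.55 percentage points (exact two-sided permutation p = 0.30, adjusted p = 0.45 over 3 names). Summed, the name had 175 ± 23.9 CPM in Pm-Tbr MASO embryos and 283 ± 47.2 CPM in control MASO embryos (SD, n = 3 each; log2 fold change -0.69, adjusted p = 0.132 in edgeR).

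The log2 fold change of Pm-Bra on scaffold 6295 was further from 0 than that of Pm-Tbx2-3 at its longer locus. Reads at the Pm-Bra locus per read at this Pm-Tbx2-3 locus were 0.400, 0.636 and 0.245 in Pm-Tbr MASO replicates 1 to 3, against 0.759, 0.977 and 0.695 in control MASO replicates 1 to 3. The groups did not overlap, and the ratio was lower in each same-numbered pair, with log2 differences of -0.92, -0.62 and -1.51 for numbers 1, 2 and 3. The mean difference was -1.02 on the log2 scale with an exact two-sided permutation p of 0.1, the smallest this design allows. This ratio was chosen after the values of both loci had been seen.

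Pm-Tbx4 was the 1 locus of the 8 with a positive estimate. In vertebrates Tbx4 is known from hindlimb and lung development. The locus (XLOC_032318, gene model PMI_009580) lies on the minus strand of scaffold 232 from 100448 to 113292. Its counts were low, with 55, 120 and 27 reads in Pm-Tbr MASO replicates 1 to 3, against 45, 56 and 34 reads in control MASO replicates 1 to 3. These are 3.21, 4.01 and 1.51 CPM in Pm-Tbr MASO libraries and 1.73, 2.06 and 1.35 CPM in control MASO libraries. The groups overlapped, since Pm-Tbr MASO replicate 3 lay below control MASO replicates 1 and 2. The log2 fold change was 0.77 ± 0.45 (SE; 95% interval -0.26 to 1.80) and did not pass (adjusted p = 0.386 in edgeR, 0.226 with the block). It was 0.46 without Pm-Tbr MASO replicate 2.

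The locus that holds Pm-Tbx15 cannot be read as that gene alone. Tbx15 is known in mice for roles in skeletal and skin patterning. In the deposited annotation 1 locus (XLOC_066703, plus strand of scaffold 698 from 16668 to 61621) joins the gene models PMI_007942 and PMI_007943, named Pm-Ncoa5L and Pm-Tbx15, and its reads cannot be divided between them. It had 25.0, 15.6 and 19.6 CPM in Pm-Tbr MASO replicates 1 to 3, against 28.7, 16.6 and 19.1 CPM in control MASO replicates 1 to 3. The groups overlapped throughout, and replicate 1 was the highest and replicate 2 the lowest in both. The log2 fold change was -0.10 ± 0.30 (SE; 95% interval -0.78 to 0.58; adjusted p = 0.892 in edgeR). Its sign turned without Pm-Tbr MASO replicate 2 (0.05) or control MASO replicate 1 (0.17).

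The Pm-Tbrg1L loci, which are not T-box genes by name, lie on the minus strands of scaffold 5310 from 10090 to 36326 (XLOC_056312, PMI_015669) and scaffold 10069 from 10949 to 27877 (XLOC_000328, PMI_017430). The locus on scaffold 10069 had 5.95, 5.32 and 10.34 CPM in Pm-Tbr MASO replicates 1 to 3, against 10.32, 17.1 and 23.4 CPM in control MASO replicates 1 to 3. The groups overlapped, as Pm-Tbr MASO replicate 3 and control MASO replicate 1 were nearly level. Its log2 fold change was -1.24 ± 0.39 (SE; adjusted p = 0.133 in edgeR) and passed with the replicate block (-1.22, adjusted p = 0.0280), where 10.1% of all tested loci were called and 4.26% were called lower, and in DESeq2 (-1.24, adjusted p = 0.0415). The locus on scaffold 5310 had 6.82, 6.82 and 11.3 CPM in Pm-Tbr MASO replicates 1 to 3, against 9.36, 13.6 and 25.3 CPM in control MASO replicates 1 to 3. Its log2 fold change was -0.95 ± 0.41 (SE; adjusted p = 0.247 in edgeR, 0.0601 with the block). It was -0.46 without control MASO replicate 3, the library with the highest value at both loci of the name.

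The share of Pm-Tbrg1L reads at the locus on scaffold 5310 was 53.4%, 56.2% and 52.3% in Pm-Tbr MASO replicates 1 to 3, and 47.6%, 44.3% and 51.9% in control MASO replicates 1 to 3. The groups did not overlap. The means of 54.0% in Pm-Tbr MASO and 47.9% in control MASO libraries differed by 6.07 percentage points (exact two-sided permutation p = 0.1, the smallest possible; adjusted p = 0.30 over 3 names). In pair 3 the difference was 0.404 points.

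**Figure D3:**
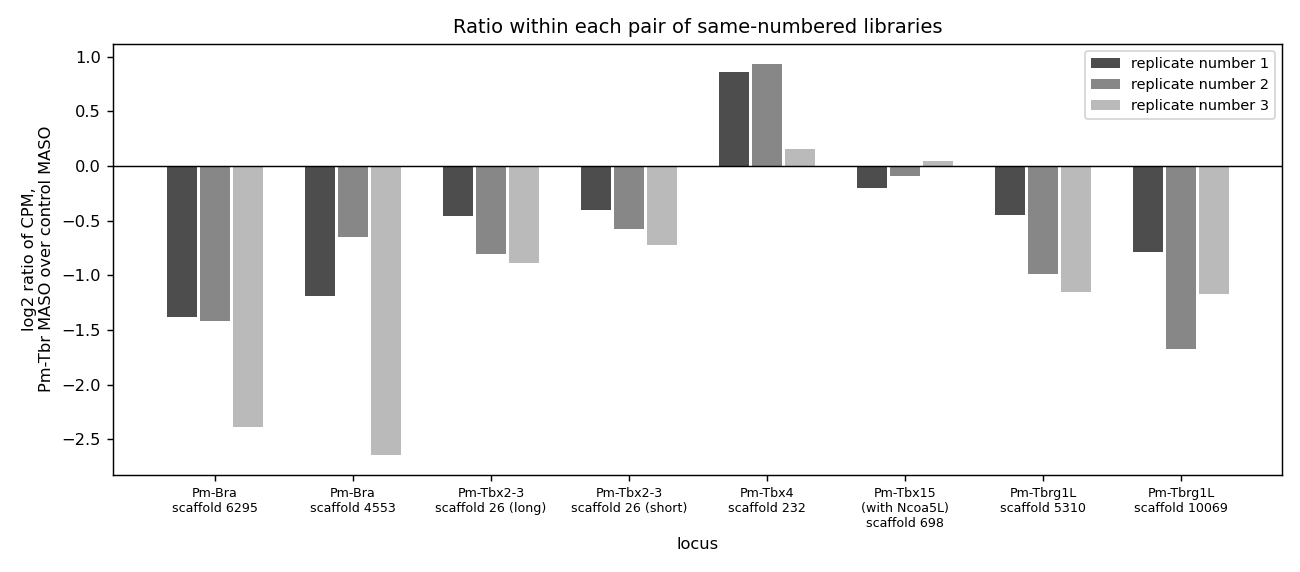
Log2 ratio of CPM, Pm-Tbr MASO over control MASO, at each of the 8 loci within the pairs of libraries that carry replicate numbers 1, 2 and 3. All 3 pairs are below 0 at both Pm-Bra, both Pm-Tbx2-3 and both Pm-Tbrg1L loci, all 3 are above 0 at Pm-Tbx4, and the locus with Pm-Tbx15 has pairs on both sides.

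Within pairs, Pm-Bra on scaffold 6295 had log2 ratios of -1.38, -1.42 and -2.39 for replicate numbers 1, 2 and 3, and the locus on scaffold 4553 had -1.18, -0.65 and -2.64. Pair 3 thus had the largest difference at both Pm-Bra loci. Pm-Tbx2-3 at its longer locus had -0.46, -0.80 and -0.89. Pm-Tbx4 had 0.86, 0.94 and 0.15, so pair 3 had the smallest difference there. The order of the libraries by replicate number was the same in both groups at 4 of the 8 loci (Pm-Bra on scaffold 4553, the shorter Pm-Tbx2-3 locus, Pm-Tbx4 and the locus with Pm-Tbx15), as at 29.3% of all tested loci.

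Among Pm-Tbr MASO libraries the coefficient of variation was 35.0% at Pm-Bra on scaffold 6295, against 11.5% among control MASO libraries. At Pm-Bra on scaffold 4553 it was 74.1% in Pm-Tbr MASO and 29.0% in control MASO libraries, and at Pm-Tbx4 43.9% in Pm-Tbr MASO and 20.6% in control MASO libraries. At the longer Pm-Tbx2-3 locus it was 13.4% in Pm-Tbr MASO and 15.3% in control MASO libraries. At the other 4 loci it was also lower among Pm-Tbr MASO libraries, with 16.5% against 23.1% in control MASO at the shorter Pm-Tbx2-3 locus, 23.4% against 29.6% at the locus with Pm-Tbx15, 31.4% against 51.4% at Pm-Tbrg1L on scaffold 5310 and 38.0% against 38.7% at Pm-Tbrg1L on scaffold 10069. These spreads rest on 3 libraries each, and their difference was not tested.

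All 8 loci passed the filter on low counts. This was built into the match by name. The deposited table holds 27630 loci, the same number as had CPM above 2 in 3 libraries. The shares over all 44120 tested loci, also those of overlap and sign, include loci outside that table, which no name could match. Of the 8 loci, 7 had negative log2 fold changes and the median was -0.83. For the 6 with T-box names these were 5 and -0.65. Among all tested loci 49.4% were negative and the median was 0.01. In the authors' deposited table, 2 of the 8 loci had a false discovery rate under 0.05, where 9.27% of the table's loci did and 3.77% did so in the lower direction. They were Pm-Bra on scaffold 6295, with a log2 fold change of -1.66 and a false discovery rate of 0.0175, and Pm-Tbrg1L on scaffold 10069, with -1.18 and 0.0320. The authors' deposited table gave the other Pm-Bra locus -1.19 (false discovery rate 0.231) and the Pm-Tbx2-3 loci -0.68 and -0.54 (0.120 and 0.274).

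The next loci on the same scaffold in the authors' deposited table were also examined for each T-box locus. Counted loci that this table leaves out may lie between them. Pm-Seta, 2456 bases beyond Pm-Bra on scaffold 6295 and on the same strand, had 14.3, 13.4 and 17.4 CPM in Pm-Tbr MASO replicates 1 to 3, against 9.70, 9.77 and 10.2 CPM in control MASO replicates 1 to 3. Its log2 fold change was 0.60 (adjusted p = 0.201 in edgeR), opposite in sign to that of Pm-Bra. Pm-Pgrp2, named after peptidoglycan recognition proteins, lies 8213 bases before the other Pm-Bra locus and stood at -0.57 on that scale (adjusted p = 0.235). Beside Pm-Tbx4, Pm-Tmem129 had a value of -0.004 (adjusted p = 0.996) and the unnamed XLOC_032311, at lower coordinates, -0.22 (adjusted p = 0.694). An unnamed locus 60717 bases before Pm-Tbx2-3 had -1.20 (adjusted p = 0.241). Pm-Med10, before the Pm-Tbx15 locus, had 0.07 (adjusted p = 0.928). The unnamed XLOC_056311, beside Pm-Tbrg1L on scaffold 5310, had 0.09 (adjusted p = 0.906). The table holds no other locus on scaffold 10069.

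An unnamed locus beside the one with Pm-Tbx15 was the only called neighbour among those tested. XLOC_066710 has no strand assigned and spans 66770 to 71898 on scaffold 698, 5149 bases beyond the end of the Pm-Tbx15 locus. It had 2612, 791 and 886 CPM in Pm-Tbr MASO replicates 1 to 3, against 102, 73.8 and 63.5 CPM in control MASO replicates 1 to 3. The groups were far apart, with a log2 fold change of 4.17 ± 0.52 (SE; adjusted p = 0.0204 in edgeR). The call was lost without control MASO replicate 2 or 3 (log2 fold changes 4.11 and 4.03, adjusted p = 0.0972 and 0.0563); the log2 fold change was 3.39 without Pm-Tbr MASO replicate 1 (adjusted p = 0.0331). The Pm-Tbx15 locus itself had -0.10. A further unnamed locus, XLOC_066704, lies inside the Pm-Tbx15 locus on the same strand from 26047 to 30028 and had -0.14 on the log2 scale (adjusted p = 0.761); reads that fell on both could not be assigned by the counting.

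Profiles were compared by centring log2 CPM on its mean over the 6 libraries and taking the root mean square difference, across 12441 loci with a gene name. Nearest to Pm-Bra on scaffold 6295 were Pm-Ciapin1 (0.20), Pm-Aldh8a1 (0.23), Pm-Dpgm (0.23), Pm-Psmf1 (0.24) and Pm-Gal3st (0.25), in log2 units. Of these, Pm-Dpgm (log2 fold change -1.75, adjusted p = 0.0369) and Pm-Gal3st (-1.76, adjusted p = 0.0259) fell, while Pm-Ciapin1, Pm-Aldh8a1 and Pm-Psmf1 did not pass in edgeR. These loci were picked by their profiles over the same libraries, so negative fold changes were built into the choice. Without control MASO replicate 2 no locus at all was called. By name, Pm-Aldh8a1 is an aldehyde dehydrogenase, Pm-Psmf1 a proteasome inhibitor and Pm-Gal3st a galactose sulfotransferase. Nearest to the longer Pm-Tbx2-3 locus were Pm-Pdhb, a pyruvate dehydrogenase subunit by name (0.06), Pm-Anapc2, a subunit of the anaphase-promoting complex by name (0.07), and Pm-Ck1a1 (0.08). Nearest to Pm-Tbx4 were Pm-Gldc, Pm-Parp1 and Pm-Trp53bp1, at 0.11, 0.11 and 0.12. Nearest to the locus with Pm-Tbx15 were Pm-Hadhb, Pm-Nek8 and Pm-Supt6h, each at 0.07, and to Pm-Tbrg1L on scaffold 5310 Pm-Hmmr (0.09), Pm-Spata5 (0.10) and Pm-Taf9 (0.12). With 6 libraries and so many loci, such near profiles are a description of level profiles alone.

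Regulators of the endomesoderm were looked at beside Pm-Bra. Of 35 loci of the endomesoderm network, 5 fell, 0 rose and 30 did not pass, with a median log2 fold change of -0.38. Over all tested loci 2.28% were called, 0.922% lower, and the median was 0.01. With only the 27630 loci with CPM above 2 in 3 libraries tested, 5 loci of the list were called. All calls then numbered 1449, 624 of them lower. The list was assembled with earlier results of these data known, so its share of calls is no independent evidence. Loci of 1 gene model were counted separately, as with both Pm-Hox11/13b loci (PMI_028777), so the falls cover fewer gene models than loci. The falls were Pm-Eve, a homeobox gene of posterior tissue (50.6 ± 4.72 CPM in Pm-Tbr MASO and 159 ± 29.4 CPM in control MASO embryos, SD, n = 3 each), Pm-Gcm, a mesodermal factor known from sea urchin pigment cells (log2 fold change -2.49), both loci of the posterior Hox gene Pm-Hox11/13b (-1.26 and -1.35), and Pm-Gsc (-2.39), a gene of the oral ectoderm in sea urchins, whose value had been seen before it was named here. The factors known to work with Brachyury in echinoderm endoderm were also looked up after their values were seen. Pm-FoxA had 436 ± 83.1 CPM in Pm-Tbr MASO and 685 ± 47.5 CPM in control MASO embryos (log2 fold change -0.65, adjusted p = 0.144). Pm-Gatae (-0.86, adjusted p = 0.102), Pm-Blimp1 (-0.95, adjusted p = 0.181) and Pm-Otx (-0.42, adjusted p = 0.286) did not pass in edgeR, although Pm-Gatae and Pm-Blimp1 passed with the replicate block (adjusted p = 0.0359 and 0.0374). With the block 9 loci of the list were lower and 1 higher, where 10.1% of all tested loci were called and 4.26% were called lower.

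For the ectoderm, where Tbx2/3 is placed in sea urchins, a list of 33 loci held 8 falls and 0 rises. Its median log2 fold change was -0.74. Over all tested loci 2.28% were called and 0.922% were called lower. With only the 27630 loci with CPM above 2 in 3 libraries tested, 9 loci of the list were called. All calls then numbered 1449, 624 of them lower. This list too was assembled with earlier results known. Its falls also cover fewer gene models than loci: both Pm-Chordin loci share PMI_016073, and both falling Pm-Nk1 loci share PMI_024149. The smallest adjusted p-values were those of the Wnt ligand Pm-Wnt7 (2.39 ± 0.396 CPM in Pm-Tbr MASO and 19.1 ± 4.61 CPM in control MASO embryos, SD, n = 3 each), both loci of the BMP antagonist Pm-Chordin (log2 fold changes -4.66 and -4.70) and the homeobox gene Pm-Hbn (-2.02). With the block 14 loci were lower and 3 higher, against 10.1% called and 4.26% called lower over all tested loci. The higher ones were all named Pm-Nk1, with log2 fold changes of 1.74, 1.49 and 1.20 in the fit with group alone. Pm-Nk1 loci of another gene model (PMI_024149) were among the falls in that fit (-1.72 and -2.12). The calls of both lists thinned out when a library was dropped, to 0 to 3 endomesoderm and 0 to 5 ectoderm loci; none was left without Pm-Tbr MASO replicate 1 or control MASO replicate 2.

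**Figure D4:**
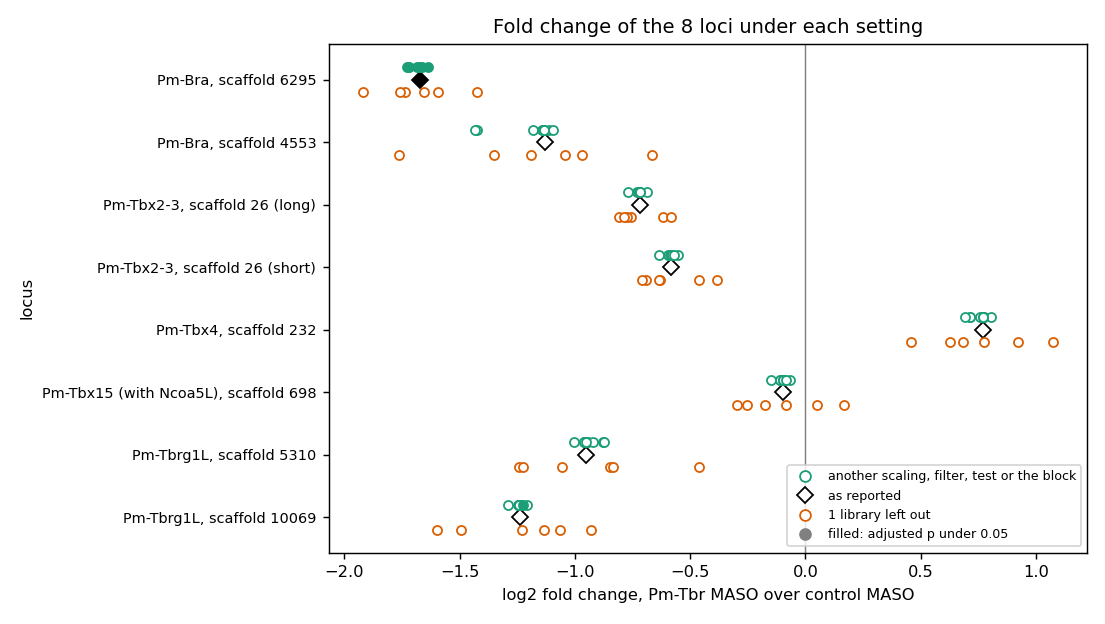
Log2 fold change of Pm-Tbr MASO over control MASO at the 8 loci as reported (black diamonds), under another scaling, filter or test or the block (green, above) and with 1 library left out (orange, below); filled symbols have an adjusted p under 0.05. Pm-Bra on scaffold 6295 stays between -1.92 and -1.42, and the locus with Pm-Tbx15 lies on both sides of 0.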

How the data were processed

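Each library has a file of read counts per locus, deposited by the authors without normalization. The authors also deposited the output of their edgeR comparison, which holds log2 fold changes and log2 CPM, the F statistic as a score, and p-values with false discovery rates. The submitters' processing notes list edgeR 3.10.5, HTSeq 0.6.1p1, Cufflinks 2.2.1, SAMtools, TopHat2 2.0.12 and CASAVA 1.8; no source used here gives the strand setting. Gene names and positions came from the deposited table. The 5 summary lines per count file, together 49.0% to 50.6% of its total, stayed out of library sizes and tests.

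The main test was edgeR's quasi-likelihood F test (version 4.0.16, R 4.3.3) on counts kept by filterByExpr (44120 loci) and scaled by TMM, with group as the only term and a Benjamini-Hochberg threshold of 0.05. SE is the size of the log2 fold change divided by the square root of F, and 95% intervals use the t distribution of the fit. No pair of libraries within a group differed by read sampling alone, since chi-square per degree of freedom was 38.3 to 54.4. Whether libraries were separate preparations from 1 RNA pool was not tested. Same-numbered libraries deviated together from their group means (across loci r = 0.53, 0.22 and 0.56 for replicates 1, 2 and 3). Between unlike numbers r was -0.47 to -0.05. Deviations within a group sum to 0 at each locus, so these negative values are tied to the positive ones and add no separate evidence. The pairing thus comes from the counts and not from a stated batch. Alternatives covered DESeq2 1.42.0, voom in limma 3.58.1, the edgeR exact test, other scalings and filters, the block, summed loci and each library left out. The members and gene lists were chosen with earlier results of these data known. All 8 matched loci were named, with 5 or 3 nearest profiles for each name among named loci with an average log2 CPM of at least 1. Also named were the next loci in the deposited table and those with the 4 smallest adjusted p-values of each list. Pm-Tbr itself is not reported here.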

Additional observations from a re-analysis of the deposited data

How the results depend on the processing

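Of 44120 tested loci, 1008 were called. The number was 4130 in DESeq2, 3394 in the edgeR exact test and 4455 with the replicate block, and 0 to 479 with 1 library left out. DESeq2 gave no adjusted p for 4345 of the loci, so its calls come from fewer loci. Of the 8 loci matched by name, 1 was called as reported, 2 in DESeq2 and 2 with the replicate block (Pm-Bra on scaffold 6295 and Pm-Tbrg1L on scaffold 10069). The number was 0 when any 1 library was left out of the edgeR quasi-likelihood fit. In those fits 2 to 5 of the 8 loci had an unadjusted p under 0.05, where 6643 to 8521 of all 44120 tested loci did. Without control MASO replicate 2 no locus was called at all in that test, against 6643 with an unadjusted p under 0.05. The endomesoderm list had 5 calls, 9 in DESeq2, 7 in the edgeR exact test, 10 with the block and 0 to 3 with a library left out. The ectoderm list had 8, 12 in DESeq2, 12 in the edgeR exact test, 17 with the block and 0 to 5 with a library left out. Pm-Tbx15 lay between -0.30 and 0.17 with a library left out and changed sign without Pm-Tbr MASO replicate 2 (0.05) and without control MASO replicate 1 (0.17). The share of Pm-Bra reads on scaffold 6295 was higher in Pm-Tbr MASO by 0.869 percentage points in pair 3, against -1.57 over all libraries. The cause of these changes was not tested, and a fit with 1 library left out also holds fewer libraries. Apart from Pm-Tbx15, no fold change of the 8 loci changed sign under any alternative, and scaling, filtering, voom and the exact test left the call on Pm-Bra in place. The replicate block changed no other call among the 8 loci. Depth limits what can be said of Pm-Tbx4, with 27 to 120 reads per library, and of Pm-Bra on scaffold 4553, with 24 to 435.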
